A study of Homo sapiens with 6 samples.

Results

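The TALE homeobox genes *PBX2*, *PBX3*, *PBX4*, *MEIS1*, *MEIS2*, *MEIS3*, *PKNOX1* and *PKNOX2* encode cofactors of HOX transcription factors. They were chosen by gene symbol, and these 8 rows of the 20347 in the RNA-seq table are described here in PaTu8988t cells, an established human PDAC cell line. RNA was sequenced from 3 replicates of control cells, which carried Lenti-CRISPR V2 with an unspecific guide, and from 3 SAMD1 KO clones, each an independent single-cell clone made with guides against *SAMD1*. Cells were transfected and selected with puromycin. SAMD1 is a repressor that binds unmethylated CpG islands, and the comparison asks how expression differs once it is deleted. Expression is given as the normalized count, a read count divided by 1 size factor for each library. Nothing states that the control replicates were separate cultures, so their spread may be technical, whereas the spread of the KO group is that between clones.

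PBX, MEIS and PKNOX proteins (the last also called PREP) share an atypical homeodomain that holds an extra loop of amino acids, which gives the TALE class its name. PBX proteins bind DNA together with HOX proteins and sharpen their choice of sites. MEIS and PKNOX proteins bind PBX, which keeps PBX in the nucleus, and MEIS proteins can also pair with HOX proteins of the posterior groups. In the pancreas, PBX and MEIS2 form a complex with the homeodomain factor PDX1 on enhancers of acinar genes.

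None of the 8 cofactor genes met the cut-off of the study, which asks for an unadjusted p below 0.01 together with an absolute log2 fold change over 0.5. Of all tested genes 7.85% met it, so few or no calls among so few genes are not unusual. *MEIS2* was 1.22-fold higher in SAMD1 KO cells and was the single member with an adjusted p below 0.05. The KO means of *PBX2*, *PBX3*, *PBX4* and *PKNOX1* lay within 10% of the control mean. *MEIS1* lay above the control range in clones 2 and 3 but not in clone 1. *MEIS3*, at a low count, lay above its control range in clones 1 and 2 and below it in clone 3. *PKNOX2* was near the limit of detection in all libraries.

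SAMD1 prefers GCGC motifs in CpG islands, so promoters of some members are shown. First come those of the 3 tested members whose libraries did not overlap between the groups, as in 37.8% of all tested genes. That of *PKNOX1* follows, which holds more GCGC and whose libraries overlapped. Each sequence runs from 250 bases before to 50 bases after a RefSeq transcription start on GRCh38.p14, 5′ to 3′ on the strand of the gene, and capitals mark GCGC. *MEIS2* has 2 such starts on the minus strand, at chr15:37099057-37099356 (upstream) and chr15:37098647-37098946 (downstream). The others are *PBX3* at chr9:125747933-125748232 on the plus strand, *PBX2* at chr6:32190153-32190452 on the minus strand and *PKNOX1* at chr21:42974312-42974611 on the plus strand.
MEIS2, upstream start: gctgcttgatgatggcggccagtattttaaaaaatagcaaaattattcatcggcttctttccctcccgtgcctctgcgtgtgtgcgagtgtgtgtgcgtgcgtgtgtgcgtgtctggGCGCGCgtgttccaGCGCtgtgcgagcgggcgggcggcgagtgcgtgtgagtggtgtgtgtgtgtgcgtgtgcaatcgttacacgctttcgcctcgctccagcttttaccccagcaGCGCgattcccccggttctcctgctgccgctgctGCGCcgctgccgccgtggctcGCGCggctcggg
MEIS2, downstream start: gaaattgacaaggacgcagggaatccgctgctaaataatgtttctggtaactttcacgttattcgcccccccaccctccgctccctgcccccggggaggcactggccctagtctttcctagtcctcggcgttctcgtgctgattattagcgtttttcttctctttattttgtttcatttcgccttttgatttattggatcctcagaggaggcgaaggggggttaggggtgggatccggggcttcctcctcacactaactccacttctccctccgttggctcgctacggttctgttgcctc
PBX3: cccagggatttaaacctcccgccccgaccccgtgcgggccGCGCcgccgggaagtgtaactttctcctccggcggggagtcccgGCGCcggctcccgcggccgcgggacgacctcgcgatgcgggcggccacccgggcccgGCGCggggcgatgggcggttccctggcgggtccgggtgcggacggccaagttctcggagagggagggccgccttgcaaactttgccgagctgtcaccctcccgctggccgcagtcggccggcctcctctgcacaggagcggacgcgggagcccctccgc
PBX2: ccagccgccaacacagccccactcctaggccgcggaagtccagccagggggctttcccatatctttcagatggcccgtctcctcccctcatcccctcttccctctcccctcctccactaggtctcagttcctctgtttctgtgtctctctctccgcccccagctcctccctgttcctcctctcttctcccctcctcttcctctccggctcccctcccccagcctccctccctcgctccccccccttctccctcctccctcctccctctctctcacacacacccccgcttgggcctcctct
PKNOX1: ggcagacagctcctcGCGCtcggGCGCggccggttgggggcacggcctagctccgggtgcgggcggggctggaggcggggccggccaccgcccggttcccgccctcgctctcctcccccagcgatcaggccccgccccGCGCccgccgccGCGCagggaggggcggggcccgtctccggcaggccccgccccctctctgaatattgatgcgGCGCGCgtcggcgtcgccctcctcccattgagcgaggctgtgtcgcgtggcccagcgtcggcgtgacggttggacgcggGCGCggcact

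GCGC is its own reverse complement, and overlapping matches were each counted. The upstream *MEIS2* promoter held 6 matches, the downstream one 0, *PBX3* 3, *PBX2* 0 and *PKNOX1* 7. At least 1 match was present in 57.2% of 35116 promoters of the same length, with a median of 1. RefSeq gave 9 promoters for 7 of the 8 members, and the remaining ones held 7 matches for *PBX4*, 2 for *MEIS1*, and 1 and 0 for *MEIS3*. The 35 CpG dinucleotides of the upstream *MEIS2* promoter, 43 of *PBX3* and 46 of *PKNOX1* compare with a median of 14 over all promoters, and *PBX2* held 8. The MEIS site TGACAG (15.8% of all promoters, both strands) was found in *PBX3*, and the PBX and HOX site TGATTNAT (2.82%) in the downstream *MEIS2* promoter. TGATTGAC, the joint site of PBX and PKNOX (0.575%), was in none of the 9. Matches are letters in these windows, and binding was not analysed here.

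The library totals ran from 35589477 to 45172216 counts. Before scaling, *PBX3* held 2089 to 2506 counts a library, *PBX4* 64 to 123 and *PKNOX2* 3 to 15. Counting error was thus relatively larger for the members with few counts, and each group held only 3 libraries. *SAMD1* itself, the edited gene, was lower in each KO library at 0.402 of the control mean (limma adjusted p = 0.000724). Of 8 epithelial markers, 7 were tested and 3 called higher, where 5.77% of all tested genes were. The keratin genes *KRT8* and *KRT18* held at least 32902 and 29200.3 normalized counts in every library, while *KRT19* was listed at 0 in all 6. *EPCAM* held 422.2 to 626.4, *MUC1* 186.4 to 240.2 and *CDH1* only 24.0 to 45.8 over the libraries. *KRT7* and *GATA6* held at most 34.3 and 47.0 in control and at least 78.1 and 132.2 in KO libraries. Of the markers of other cell types, *LUM*, *DCN* and *FAP* of fibroblasts and *CD3E* of T cells were at 0, *PTPRC* of leukocytes reached at most 2.7, and the 5 endothelial markers summed to between 36.6 and 89.3. The 7 fibroblast markers summed to between 163.8 and 166.3 in control and between 148.4 and 443.2 in KO libraries, most of it *COL3A1*, and the lowest sum was that of clone 3. The 4 leukocyte markers summed to between 364.9 and 383.5 in control and between 254.0 and 352.6 in KO libraries, most of it *CD68*. Of the markers of these other cell types, 7 were tested and 0 called by limma. An unadjusted limma p below 0.05 was seen for 4 (*COL3A1* higher, *COL1A1*, *CDH5* and *CD68* lower), where 29.6% of all tested genes had one. Their part in the results below was not tested. In bulk RNA, fewer cells with a transcript and less transcript per cell cannot be told apart.

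*PBX3* (ENSG00000167081.18, chromosome 9, 125747345 to 125967377, GENCODE 44 on GRCh38), which can drive leukaemia together with HOXA9 and MEIS1, was the member with the most reads. Control replicates 1 to 3 held 2389.5, 2290.5 and 2441 normalized counts, and SAMD1 KO clones 1 to 3 held 2273, 2165 and 1996. All 3 clones lay below the control range, and clone 3 lay lowest. The log2 fold change was −0.15 (standard error 0.066, 95% interval −0.30 to 0.0072, limma adjusted p = 0.186). Among the 40 nearest tested genes around *PBX3*, the median log2 difference to the control mean was −0.20 in clone 3, against −0.018 and −0.014 in clones 1 and 2. After such regional medians were removed in every library, the log2 fold change of *PBX3* was −0.071, and without clone 3 it was −0.097.

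*PBX2* (ENSG00000204304.12, chromosome 6, 32184733 to 32190202), a broadly expressed PBX gene in the MHC region, varied least between the clones. It was counted at 438.1, 451.1 and 457.0 in control cells and at 437.1, 431.1 and 429.0 in the clones. The groups did not overlap, although control replicate 1 and clone 1 were almost equal. The log2 fold change was −0.053 (standard error 0.078, 95% interval −0.24 to 0.13, limma adjusted p = 0.693). Reads shared with its pseudogene *PBX2P1* are uncertain.

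*PBX4* (ENSG00000105717.14, chromosome 19, 19561707 to 19618693), a PBX gene best known from the testis, was detected at a low level. Control replicates held 99.5, 102.7 and 73.3 normalized counts and the clones 97.9, 106.3 and 66.6. Each group held 1 low library, replicate 3 and clone 3, and the ranges overlapped almost fully. The log2 fold change was −0.038 (standard error 0.23), and its 95% interval from −0.58 to 0.50 was wide enough to hold changes past the cut-off (limma adjusted p = 0.933).

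*MEIS2* (ENSG00000134138.22, chromosome 15, 36889204 to 37101299), which acts in limb, neural crest and pancreatic development, had the smallest p of the tested members. Control cells held 1109.5, 1182 and 1123 normalized counts, against 1312, 1362 and 1485 in clones 1 to 3. Every clone lay above every control replicate, and clone 3 was highest. The log2 fold change was 0.28 (standard error 0.071, 95% interval 0.12 to 0.45, limma adjusted p = 0.0414). The interval ended below the fold-change cut-off of 0.5. When single libraries were left out, the log2 fold change stayed between 0.23 and 0.32, but the adjusted p was below 0.05 in 1 of the 6 fits, the one without clone 1 (0.0237), and between 0.0552 and 0.182 in the others. With the replicate number as a block it was 0.0749. The neighbouring genes of *MEIS2* had medians of −0.027, −0.11 and −0.061 in the clones, and with these removed the log2 fold change was 0.35.

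*MEIS1* (ENSG00000143995.20, chromosome 2, 66433452 to 66573869), a leukaemia oncogene and partner of HOXA9, was expressed at 233.3, 229.0 and 219.9 normalized counts in control cells. The clones held 225.5, 278.2 and 314.8. Clone 1 fell within the control range and the others lay above it. The log2 fold change was 0.25 (standard error 0.14, 95% interval −0.081 to 0.58, limma adjusted p = 0.281), and it was 0.38 without clone 1 (adjusted p = 0.0543) and 0.14 without clone 3 (adjusted p = 0.494). The neighbouring genes had a median of at most 0.022 in each clone. The gene model of *MEIS1* overlaps the antisense genes *MEIS1-AS2* and *MEIS1-AS3*, which have no row of their own in the table. Other annotated models overlap *PBX2*, *PBX4* (*PHF5AP1* among them), *MEIS2* (*MIR8063* and a Y RNA) and *PKNOX2* (*RNU6-321P*), likewise without a row, and none overlaps *PBX3*, *MEIS3* or *PKNOX1*.

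*MEIS3* (ENSG00000105419.18, chromosome 19, 47403124 to 47419527), a MEIS gene linked to beta-cell survival, had almost equal values in the control replicates, at 36.6, 35.2 and 35.5 normalized counts. The clones spread around them, at 54.4, 38.9 and 24.3. Clones 1 and 2 lay above the control range and clone 3 below it, around a mean of 39.2 ± 15.1 (SD, n = 3). In steps of the smallest value of each library, taken as reads, control held 32, 36 and 31, and clones 2 and 3 held 45 and 27. With so few reads counting error alone spreads the libraries, and whether the clones differed beyond it was not tested. The fitted log2 fold change was 0.056 (standard error 0.30, 95% interval −0.65 to 0.77, limma adjusted p = 0.924), with a sign that depended on the clones included. In clone 3 the log2 difference of *MEIS3* from control was −0.54, while that of its neighbouring genes had a median of 0.31. *MEIS3P1* and *MEIS3P2* are pseudogenes of *MEIS3*, and reads shared with them are uncertain.

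*PKNOX1* (ENSG00000160199.15, chromosome 21, 42974510 to 43033931), the broadly expressed PREP1 gene needed for embryonic development, held 1398, 1353 and 1491 normalized counts in control cells. The clones held 1553, 1457 and 1392, and the groups overlapped. The log2 fold change was 0.053 (standard error 0.070, 95% interval −0.11 to 0.22, limma adjusted p = 0.658), and it ran from 0.011 without clone 1 to 0.092 without control replicate 3.

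*PKNOX2* (ENSG00000165495.16, chromosome 11, 125164687 to 125433389), the paralogue of *PKNOX1* with narrower expression, had a mean of 6.74 normalized counts over the 6 libraries and did not reach the minimum of 10 for the main fit. In steps of the smallest value of each library, taken as reads, it held 3, 4 and 3 in control cells against 6, 15 and 12 in the clones, that is 10 against 33 in all. The 6 of clone 1 rests on a step that the recovery check refused. The groups did not overlap, and clone 1 lay nearest to control. The ratio of the scaled sums was 2.79, with an exact 95% interval of 1.34 to 6.34 that covers counting error alone. When all 16476 genes with any read were fitted, the log2 fold change of *PKNOX2* was 1.19 (standard error 0.36, 95% interval 0.35 to 2.02, limma adjusted p = 0.0845) and the unadjusted p of 0.0112 missed the cut-off.

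**Figure D1:**
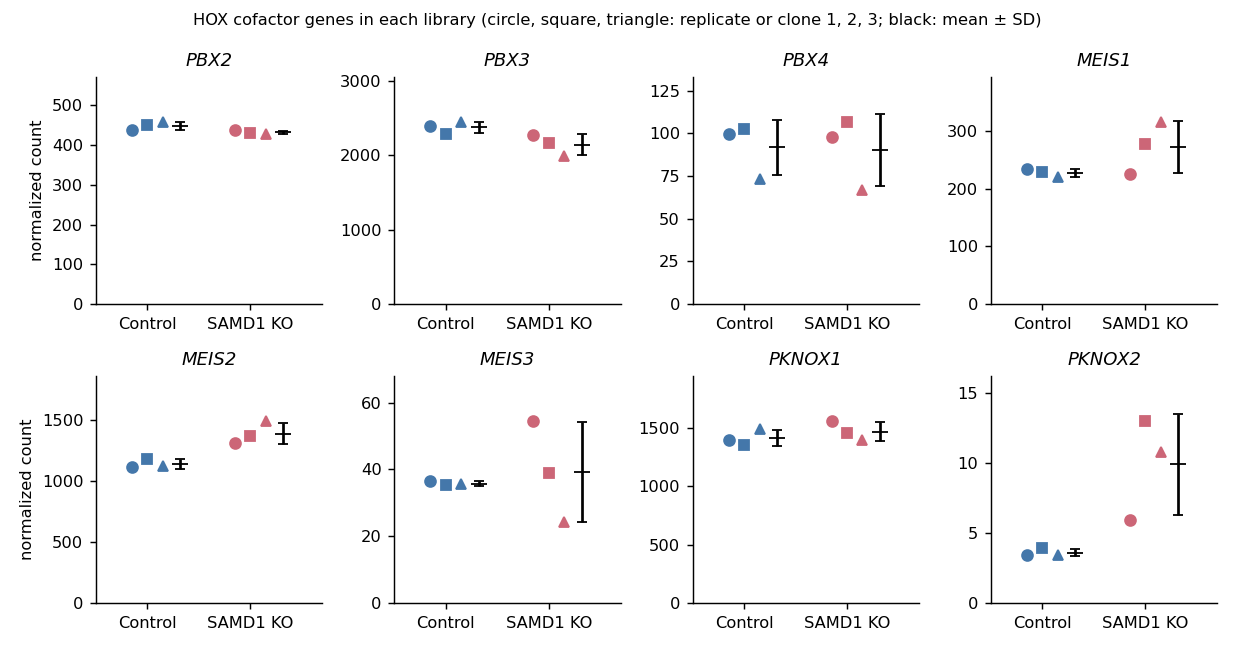
Normalized count (y axis, from 0, a scale for each gene) of the 8 cofactor genes in the 3 control and 3 SAMD1 KO libraries, with the mean and SD in black (n = 3). The clones of MEIS2 lie between 1312 and 1485, above all control replicates, and those of MEIS3 spread from 24.3 to 54.4 around control values of 35.2 to 36.6.

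Across the 7 tested members, 0 were called higher and 0 lower, where the same cut-off called 7.85% of all 12773 tested genes (5.77% higher and 2.08% lower). At an unadjusted limma p below 0.05 there was 1 member, *MEIS2*, where 29.6% of all tested genes passed, and 1 at an adjusted p below 0.05, where 13.0% passed. On recovered reads of 5 libraries, edgeR and DESeq2 each called 0 as well. All 7 had an absolute log2 fold change of at most 0.5, like 86.3% of all tested genes, and their median log2 fold change was 0.053 against −0.0059 over all. Libraries of the groups did not overlap in 3 of the 7 (*MEIS2* higher, *PBX2* and *PBX3* lower), near the 37.8% of all tested genes. For *PBX2*, *PBX3*, *MEIS2* and *PKNOX1* the 95% interval lay wholly within the cut-off of 0.5 in both directions. For *PBX4*, *MEIS1* and *MEIS3* it reached past 0.5, so it did not exclude a change of that size. With 3 libraries a group, the two-sided exact permutation test has a smallest p of 0.1, which it gave for *MEIS2*, *PBX2*, *PBX3* and *PKNOX2*.

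**Figure D2:**
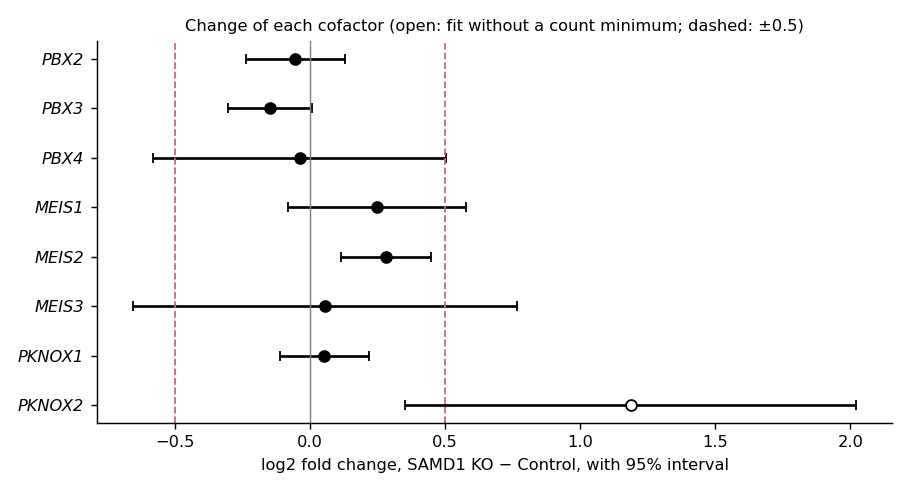
Log2 fold change between SAMD1 KO and control (x axis, positive where higher in KO) with its 95% interval for each cofactor gene (rows), from limma over all tested genes, or for PKNOX2 (open symbol) from the fit without a count minimum. Dashed lines mark 0.5 in both directions, and the intervals of PBX2, PBX3, MEIS2 and PKNOX1 end inside them.

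The clones differed among themselves more than the control replicates did. The SD was larger in the KO group for 7 of the 8 members, as for 83.1% of all tested genes. The coefficient of variation ran from 2.04% to 17.6% in control and from 0.963% to 38.4% in KO cells, with *PBX2* at the lower and *MEIS3* at the upper end of the KO range. Clone 3 held the highest *MEIS1* and *MEIS2* and the lowest *PBX2*, *PBX3*, *PBX4*, *MEIS3* and *PKNOX1* of the 3 clones. The neighbouring genes of *PBX3*, *PBX4* and *MEIS3* also had their largest shifts in clone 3, at −0.20, −0.17 and 0.31, the last opposite in sign to *MEIS3*.

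**Figure D3:**
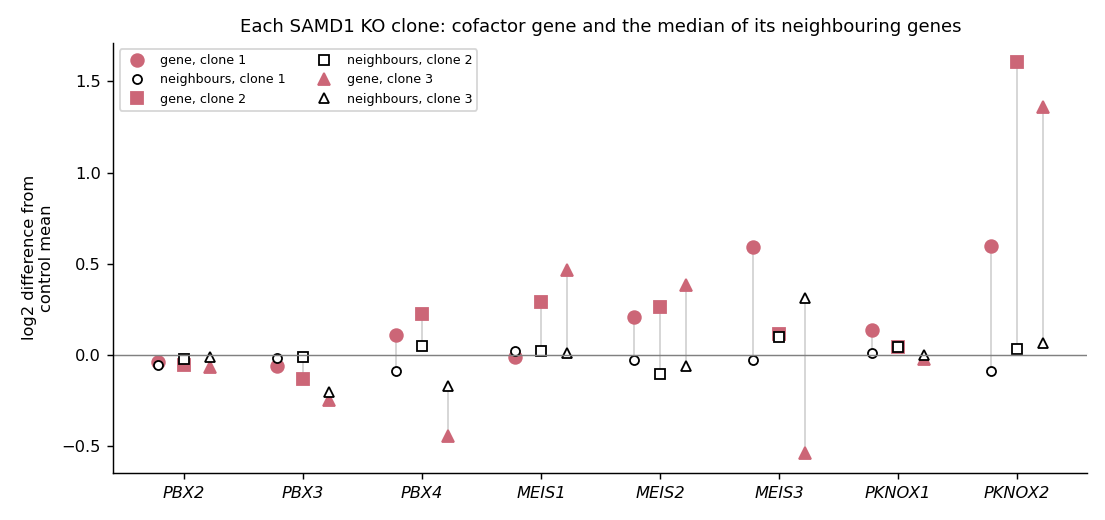
Log2 difference from the control mean (y axis) of each cofactor gene in SAMD1 KO clones 1, 2 and 3 (filled circle, square and triangle), beside the median of its 40 neighbouring tested genes in the same clone (open). MEIS2 lies above its neighbours in all 3 clones, and MEIS3 in clone 3 lies at −0.54 where its neighbours lie at 0.31.

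Levels were compared between genes per kb of merged exons, as normalized counts per kb. In control cells *PBX3* led with 484.0 ± 15.6 (SD, n = 3), followed by *PKNOX1* with 185.6 ± 9.3. *PBX2* at 102.7 ± 2.2 and *MEIS2* at 95.7 ± 3.2 were close to each other. *PBX4* (39.4 ± 6.9), *MEIS1* (20.8 ± 0.63), *MEIS3* (6.98 ± 0.14) and *PKNOX2* (0.550 ± 0.042) followed, and no neighbours in this order overlapped in the control libraries. In SAMD1 KO cells *MEIS2*, at 116.5 ± 7.5, stood above *PBX2*, at 99.0 ± 0.95, and the libraries of *PBX4* and *MEIS1* overlapped. The order of *MEIS2* and *PBX2* depended on the length used, since *MEIS2* stood above *PBX2* in both groups per kb of the longest annotated transcript.

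**Figure D4:**
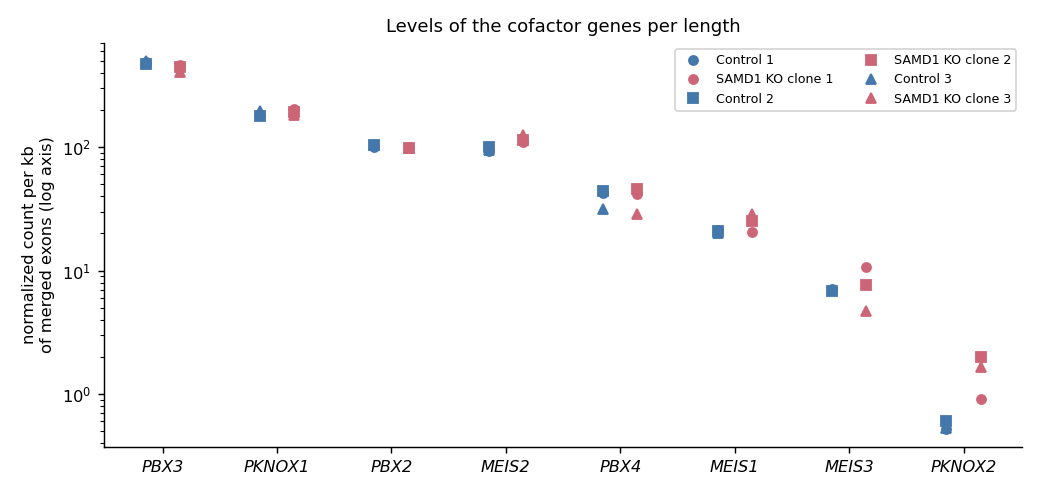
Normalized count per kb of merged exons (y axis, log scale) of the 8 cofactor genes in each control (blue) and SAMD1 KO (red) library. PBX3 is highest at 484.0 in control cells, PKNOX2 is lowest at 0.550, and MEIS2 passes PBX2 in the KO libraries.

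Of the summed level of the 8 members per kb, *PBX3* made up 51.7% ± 0.82 in control and 47.6% ± 1.1 in KO cells (SD, n = 3 each). The share of *MEIS2* was 10.2% ± 0.50 and 12.7% ± 1.4, and that of *PKNOX1* 19.8% ± 0.66 and 21.0% ± 0.40. Ratios within a library do not depend on how libraries were scaled. The ratio of *MEIS2* to *PBX3* normalized counts was 0.464, 0.516 and 0.460 in control cells, against 0.577, 0.629 and 0.744 in the clones. Its lack of overlap follows from *MEIS2* lying above and *PBX3* below the control range in every clone, and adds nothing to these. That of *PKNOX1* to *PBX3* was 0.585 to 0.611 in control and 0.673 to 0.698 in KO cells, also without overlap. The ratio of *MEIS2* to *PKNOX1* overlapped, at 0.753 to 0.873 against 0.845 to 1.07, as did that of *MEIS1* to *MEIS2*. Of 7 ratios computed after the values were seen these 4 are given, as a description. Summed per kb, *PBX2*, *PBX3* and *PBX4* together lay below the control range in each clone (626.2 ± 10.3 and 575.1 ± 37.1), and the 3 MEIS genes lay above it (123.4 ± 3.2 and 149.1 ± 8.5). Most of each sum was 1 gene, *PBX3* at 484.0 and *MEIS2* at 95.7 in control cells. *PBX4*, *MEIS1* and *MEIS3* on their own overlapped between the groups.

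The HOX genes, whose products the cofactors bind, held more calls than their cofactors. Of all tested genes, 5.77% were called higher and 2.08% lower. Of 23 anterior and central HOX genes (to paralog group 8), 18 were tested, and 9 were called higher and 0 lower, with a median log2 fold change of 0.82. Those with the smallest p were *HOXB8* (95.2 ± 15.2 to 339.9 ± 21.2 normalized counts, SD, n = 3 each), *HOXB4* (194.1 ± 3.6 to 539.0 ± 91.1) and *HOXB2*. Of 16 posterior HOX genes (from paralog group 9 on), 6 were tested and 2 called higher, with a median of 0.45, led by *HOXB9*, which rose from 556.3 ± 29.0 to 1868 ± 262.3, and *HOXA13*. *HOXC9*, next by p, had a log2 fold change of 0.48. *HOXA9*, which encodes the leukaemia partner of MEIS1 and PBX3, had at most 3.96 normalized counts in any library. The difference between HOX genes and cofactors was not tested.

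Among 10 other TALE genes, *IRX1*, *IRX2*, *IRX4*, *IRX6* and *TGIF2LX* were at 0 in all libraries and 5 were tested. Of these, 1 was called higher, where 5.77% of all tested genes were. It was *MKX*, a tendon regulator, with 203.6, 198.6 and 193.6 normalized counts in control and 273.9, 489.9 and 295.9 in the clones (limma adjusted p = 0.0561). *TGIF1*, a repressor in TGF-beta signalling, stayed just under the fold-change cut-off at 0.47 (adjusted p = 0.0473). *IRX5*, next by p, had 0.28. The median of the 5 was 0.28.

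Of 18 other protein partners, 15 were tested and 1 was called higher, a share near the 5.77% of all tested genes, and the median log2 fold change was 0.13. The gene called was *PDX1*, the pancreatic homeodomain factor that pairs with PBX and MEIS2, which was at 141.9 ± 5.9 in control and at 224.5 ± 24.6 in KO cells (mean normalized count ± SD, limma adjusted p = 0.0175). *FOXC1* and *KLF4*, next by p, had log2 fold changes of 0.34 and 0.47. Of 20 genes known as targets of the cofactors in other tissues, 13 were tested and 2 called higher, with a median of 0.26. *TRIB2*, a MEIS1 target in leukaemia, rose from 167.0 ± 8.8 to 409.9 ± 70.9 (adjusted p = 0.0028). *FLT3*, another, held 10.3, 4.89 and 8.02 normalized counts in control and 33.6, 22.5 and 17.1 in the clones (adjusted p = 0.0412), and *LMO2*, next by p, had a log2 fold change of 0.84 (adjusted p = 0.0755). The acinar and endocrine targets *CELA1*, *SST* and *GCG* were at 0 in all 6 libraries.

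**Figure D5:**
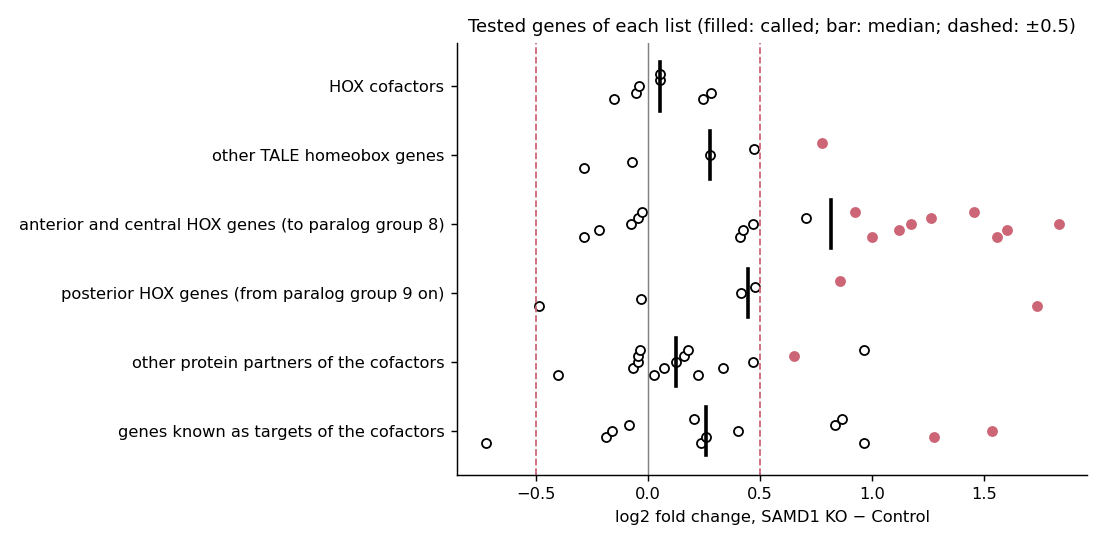
Log2 fold change between SAMD1 KO and control (x axis, positive where higher in KO) for the tested genes of 6 lists (rows), with called genes filled and the median as a bar. The 7 tested cofactors lie between −0.15 and 0.28 with none called, and 9 of 18 anterior and central HOX genes are called higher.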

How the data were processed

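RNA-seq data of PaTu8988t cells (3 control libraries, 3 SAMD1 KO clones) were used. The authors used RNA-STAR for alignment against GenCode transcripts, and the submitters' processing notes name hg38, featureCounts and DESeq2. The strand setting of the counting is not given in the sources used here, so reads of overlapping or antisense genes are uncertain. The deposited signal is a normalized count. Within a library, 100% of values fell on whole multiples of 1 step (tolerance 0.01). Reads were recovered for 5 libraries, since the step of SAMD1 KO clone 1 (0.989) was too near 1 for the recovery check. The authors' table of their own comparison (means, log2 fold changes, p-values) was not used. No sample column was left out (0 columns).

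limma 3.58.1 (lmFit, eBayes with trend) in R 4.3.3 was fitted on log2(normalized count + 1), two-sided, for the 12773 genes with a mean of at least 10, with Benjamini-Hochberg adjustment over all. All fold changes are on this scale. The members and lists were chosen with earlier results of these data known, and the lists were written by hand. Named are the members, *SAMD1*, overlapping genes and up to 3 genes of each list by p; genes most like a called member were to be named, and no member was called. Genes at 0, some marker genes, *HOXA9*, *CRABP1* and pseudogenes were named after their values were seen. 1 marker gene is not reported here. Neighbours are the 20 nearest tested genes on each side. Positions and lengths are from GENCODE 44, promoters from RefSeq. Alternatives tried were other pseudocounts (0.1 and 10), no minimum or one of 50, rescaling by the 75th percentile, a replicate block, leaving out each library, an adjusted p below 0.05, removal of regional medians, another gene length, and edgeR 4.0.16 or DESeq2 1.42.0. The fits were tested on simulated data. Python 3.11.15 was used for other steps.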

Additional observations from a re-analysis of the deposited data

How the results depend on the processing

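The counts of 0 members called higher and 0 called lower did not move under any of the 16 alternatives run, and the log2 fold changes of *PBX2*, *PBX3*, *MEIS1*, *MEIS2* and *PKNOX1* kept their sign under all 15 run for them. That of *MEIS2* lay between 0.23 and 0.35, with an adjusted p from 0.00505 to 0.182, below 0.05 in 9 of the 15. The smallest came from DESeq2 without clone 1. The edgeR and limma fits without clone 1 were also among the 9, and clone 1 was the clone nearest to control for *MEIS2*. The sign of *PBX4* and *MEIS3* turned in some fits. *PBX4* gave −0.19 to 0.17 with each library left out (0.028 without control replicate 1, 0.050 without control replicate 2, 0.17 without clone 3) and 0.033 with regional medians removed. *MEIS3* gave −0.21 to 0.35 with each library left out (−0.21 without clone 1) and −0.062 with regional medians removed. The count tools were planned for all 6 libraries and run on the 5 with recovered reads, a change made after seeing the data. Without clone 1, they gave *MEIS3* −0.17 (edgeR) and −0.18 (DESeq2). Of the anterior and central HOX genes 7 to 9 were called higher, and of the posterior ones 2 to 3. With a minimum mean of 50, *MEIS3* was not tested. The share of *PBX3* in the summed level of control cells was 52.6% per kb of the longest transcript, against 51.4% to 52.2% with each control library left out.

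With the replicate number as a block, 0 members were called higher and 0 lower, and 725 genes in all were called higher and 259 lower. Clones and control replicates of equal number went together weakly. Deviations of equal numbers correlated at 0.032 to 0.13 and of unequal numbers at −0.074 to 0.036. Of 6 libraries, 5 correlated best with their own number, and whether equal numbers share a batch was not tested. Members below about 100 normalized counts (*PBX4*, *MEIS3*, *PKNOX2*) had the widest intervals.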

Other observations

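Retinoic acid is a known inducer of MEIS, PBX and HOX genes in embryonic and tumour cells. Of 18 retinoic acid response genes listed by hand, 14 were tested, and in limma 8 were called higher and 1 lower in SAMD1 KO cells, where 5.77% and 2.08% of all tested genes were. Their median log2 fold change was 0.70, and the list was written with earlier results of these data known. *RARG*, which encodes a retinoic acid receptor, rose from 1531 ± 90.1 in control to 2458 ± 83.8 in KO cells (mean normalized count ± SD, n = 3 each). *TGM2*, a transglutaminase induced by retinoic acid, rose from 48002 ± 2167 to 78744 ± 6943. *DHRS3*, a retinal reductase, rose from 17.9 ± 2.8 to 57.5 ± 5.7. The gene called lower was *CRABP1*, which encodes a retinoic acid binding protein, with 11.4, 18.6 and 25.2 normalized counts in control and 2.97, 2.59 and 1.80 in the clones. *MEIS1* and *MEIS2* differed by less, with log2 fold changes of 0.25 and 0.28.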
